A study of Mus musculus with 54 samples.

Results

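Natural killer (NK) cells were followed in the 27 single-cell libraries of a mouse kidney study that compared tissue dissociation and storage protocols. A barcode, which stands for 1 captured droplet, was selected by its own UMI counts (molecules counted once each). It needed UMIs of at least 2 of the 5 genes Nkg7, Klrb1c, Gzma, Ncr1 and Klre1, and 0 UMIs of the T cell genes Cd3d, Cd3e and Cd3g, the B cell gene Cd79a and the macrophage gene C1qa. Of 77656 barcodes, 180 (0.232%) met this rule, in 17 of the 27 libraries. The levels of these 10 genes therefore chose the members and are given as a description only.

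Every group held 3 libraries, 1 for each mouse or kidney. The first mice were male AFAPIL.1DEL C57BL/6J littermates of 19 weeks, whose kidneys were dissociated either cold, with a protease of Bacillus licheniformis on ice, or warm, with a commercial enzyme kit. Those suspensions were profiled fresh, after cryopreservation for 6 weeks in a medium with DMSO and serum, and after methanol fixation for 3 months. Untreated Balb/c male littermates of 18 weeks gave cold fresh libraries, and wild type Balb/c females of 15 weeks, former breeders, gave cold libraries that were fresh or cryopreserved for 2 weeks. The females were the only mice profiled with version 3 of the 10x chemistry. Stored libraries came from aliquots of the suspensions profiled fresh. Barcodes of the C57BL/6J cell libraries carry 1 of 3 tags that cold and warm, fresh and stored libraries share. The tags are read here as mice 1 to 3, which the labels do not state. Sex, strain, age, chemistry and batch of the 3 sets of mice cannot be told apart. Libraries held between 983522 and 27869324 UMIs, and their median barcode held 343 to 3330.5 UMIs. Pairs of libraries shared a median of 0.334% of barcode sequences (highest 1.78%), and no member barcode occurred in more than 1 library.

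NK cells are innate lymphocytes that kill stressed, infected or transformed cells without rearranged antigen receptors. They read a balance of activating and inhibitory receptors, many of them C-type lectin-like proteins encoded together in the NK gene complex, and release granules with perforin and granzymes. They also secrete chemokines and interferon-γ, and they occur in blood and in most organs, the kidney included. Of the rule's genes, Nkg7 encodes a granule membrane protein, Gzma a granzyme, Ncr1 the activating receptor NKp46, Klrb1c the NK1.1 antigen, and Klre1 a lectin-like receptor.

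On GRCm38 the 5 genes lie on 3 chromosomes. Klrb1c (chr6:128778485-128789215, minus strand) and Klre1 (chr6:129577905-129585827, plus strand) share chromosome 6 with Klrd1 and Klrk1. Nkg7 (chr7:43437073-43438249, plus strand) and Ncr1 (chr7:4337724-4345164, plus strand) lie on chromosome 7, and Gzma (chr13:113093825-113100981, minus strand) on chromosome 13. The promoter windows of the 3 genes that name these cells are printed because their UMIs, with those of Ncr1 and Klre1, chose the members. Each window runs from 250 bases before to 50 bases after a RefSeq transcript start on GRCm38.p6, read 5′ to 3′ on the gene's strand. Capitals mark a match to TGTGGT, the core bound by RUNX factors, on either strand.
Nkg7 (chr7:43436888-43437187, plus strand): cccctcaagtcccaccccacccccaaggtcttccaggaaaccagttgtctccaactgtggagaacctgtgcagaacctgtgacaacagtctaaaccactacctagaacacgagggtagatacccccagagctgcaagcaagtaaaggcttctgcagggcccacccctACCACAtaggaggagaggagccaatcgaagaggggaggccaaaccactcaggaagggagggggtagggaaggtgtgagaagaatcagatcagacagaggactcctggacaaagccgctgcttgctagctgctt
Klrb1c (chr6:128788592-128788891, minus strand): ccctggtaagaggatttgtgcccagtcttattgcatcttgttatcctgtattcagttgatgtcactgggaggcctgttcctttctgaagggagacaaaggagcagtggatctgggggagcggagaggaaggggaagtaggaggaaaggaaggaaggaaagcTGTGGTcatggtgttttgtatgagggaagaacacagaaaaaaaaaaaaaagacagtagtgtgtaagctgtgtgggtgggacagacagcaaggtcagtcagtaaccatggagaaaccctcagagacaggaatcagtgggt
Gzma (chr13:113100932-113101231, minus strand): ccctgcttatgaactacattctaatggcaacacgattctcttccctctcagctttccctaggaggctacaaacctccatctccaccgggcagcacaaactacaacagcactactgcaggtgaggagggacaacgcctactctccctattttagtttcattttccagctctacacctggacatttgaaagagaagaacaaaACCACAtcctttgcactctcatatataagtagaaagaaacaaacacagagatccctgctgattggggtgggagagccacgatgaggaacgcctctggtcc

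The matches began 83, 89 and 50 bases before the start in Nkg7, Klrb1c and Gzma. All 5 of the rule's genes had TGTGGT in at least 1 of their 7 windows (6 of 7 windows), against 16.8% of 32851 promoter windows of the same length. The 2 windows of Ncr1 overlap and hold the same 2 matches. A count of genes, some with 2 windows, is also not a like measure to a percent of windows. The ETS core AGGAAG was present for 3 of the 5 genes (35.4% of all windows) and the T-box letters GGTGTG for 1 (19% of all windows). All motifs were searched on both strands, TGTGGT and GGTGTG can share bases where they overlap, and a match describes letters, not binding.

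Among the 180 members, Nkg7 had a UMI in 177 (98.3%), Ncr1 in 107 (59.4%), Gzma in 101 (56.1%), Klre1 in 57 (31.7%) and Klrb1c in 39 (21.7%). Exactly 2 of the 5 genes were present in 93 members, 3 in 58, 4 in 24 and all 5 in 5. Gzma carried the most molecules, 1792 UMIs in all, against 933 for Nkg7, 313 for Ncr1, 91 for Klre1 and 62 for Klrb1c. At the edge of the rule, 11 members held only 2 UMIs of the 5 genes and 148 held at least 5. Just outside it lay 358 barcodes with exactly 1 of the 5 genes and no excluding gene, and 60 with at least 2 of the 5 genes and an excluding gene.

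How many of the 5 genes could be found depended on the library. The authors left out genes detected in fewer than 10 cells, and the files showed such a filter library by library, though not as a strict limit. Between 709 and 1705 genes a library had UMIs in 10 to 15 barcodes and at most 128 in 1 to 6, and a rarer gene often held only 0 or was not listed. Among the exceptions, Gzma had UMIs in 6 barcodes of 1 library and Cd79a in 3 of another. Nkg7 had UMIs in 26 of the 27 libraries, Gzma in 14, Ncr1 in 10, Klre1 in 7 and Klrb1c in 5. Klrb1c was listed for the 18 C57BL/6J libraries and for no Balb/c library, so it could not be counted in Balb/c members. Klre1 was listed for no Balb/c male and no cryopreserved female library. All 10 libraries without a member had UMIs of fewer than 2 of the 5 genes, so no barcode there could meet the rule and their 0 sets no limit on the share of NK cells. Of the excluding genes, Cd3d and Cd3e were without UMIs in 3 libraries and Cd3g in 2, and 1 of these libraries held members. Over the members of libraries where a gene did have UMIs, detection was 98.3% for Nkg7, 78.7% for Ncr1, 65.5% for Klre1, 64.3% for Gzma and 60% for Klrb1c. In libraries with UMIs of only 2 of the 5 genes, the rule made every member carry both. This raises the values of Nkg7, Ncr1, Klre1 and Gzma by unlike amounts, and they are not compared between genes.

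The label was checked against NK markers that the rule did not use. Tyrobp (DAP12) and Fcer1g, the signalling adaptors of activating receptors, each had UMIs in 82.2% of members. The receptor genes Klrd1 (CD94) and Klrk1 (NKG2D) were found in 69.4% and 61.6% of the members of libraries where they had UMIs, the granule protease Ctsw in 61.7%, Cd7 in 44.4% and the interleukin-2 receptor chain Il2rb in 34.9%. In T barcodes Tyrobp reached 3.65%, Fcer1g 5.36%, Klrd1 17.9% and Klrk1 11.9%. T barcodes were those with UMIs of at least 2 of Cd3d, Cd3e, Cd3g, Trac and Trbc2, at least 1 of them a Cd3 gene, and no UMI of Cd79a or C1qa. Macrophages also carry Tyrobp (86.3%) and Fcer1g (87.1%), but Csf1r, Adgre1 and Cd68 were at 0 in all members and C1qb was in 3.33%. Perforin (Prf1) and Eomes had no UMIs in any library with members and are given in bulk only.

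Leaving out the 5 genes that the rule fixed at 0, 3 of 7 T, 5 of 7 B, 3 of 6 macrophage and none of 3 neutrophil markers were detected in members. Cd4, Cd8a, Cd5 and Cd6 were at 0 in the members, Trac was in 4.44% and Trbc2 in 25.6%, against 60.1% and 80.3% of T barcodes, which these same 2 genes helped to choose. The costimulatory receptor gene Cd28 was in 13.8% of the members of libraries where it had UMIs, against 34.7% of T barcodes. The immunoglobulin gene Ighm was in 13.9%, against 14.9% of T and 77.7% of B barcodes. The B cell genes Cd79b and Ms4a1 and the neutrophil genes S100a8, S100a9 and Csf3r were also at 0. The 8 proximal tubule markers made up 0.0401 to 2.27% of a library's member UMIs (median 0.777%), below the share over all barcodes in 16 of 17 libraries. The 4 haemoglobin genes made up 0 to 4.75% (median 0.079%), below all barcodes in 11 of 17. The tubule genes Gpx3 and Kap had a UMI in 70.6% and 51.1% of members, and Hbb-bs and Gpx3 stood among the 20 most abundant genes at 3070 and 3050 CPM. Their part in the results was not tested. In all, 11 members held UMIs of 2 or more of 11 markers of other classes.

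**Figure D1:**
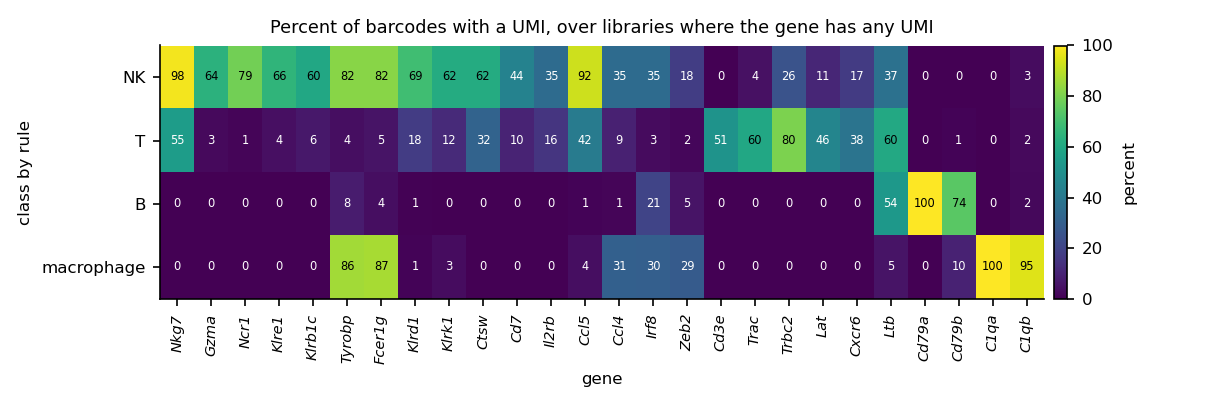
Percent of barcodes with at least 1 UMI of each gene (columns) in barcodes that met the NK, T, B or macrophage rule (rows), over the libraries where the gene had any UMI. Each class is pooled over all libraries that held it, so the NK row covers fewer libraries than the others. Gzma and Ncr1, like Nkg7, chose the members. Outside the rule, Klrd1 and Klrk1 were in 69.4% and 61.6% of members against 17.9% and 11.9% of T barcodes, and members share Tyrobp and Fcer1g with macrophages, and share Nkg7, Ccl5 and Ctsw in part with T barcodes.

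The members held a median of 1260.5 UMIs (265 to 10846) and 580.5 genes, and 273784 UMIs in all. Pooled over members, as CPM (UMIs scaled to a common total), the abundant genes outside the ribosomal and mitochondrial lists were Malat1 with 26000, the actin-binding Tmsb4x with 16300, the chemokine Ccl5 with 13900, Actb with 9050 and Gzma with 6550. Ccl5 had UMIs in 92.2% of members, and its level in the 15 libraries with at least 5 members ran from 4500 to 43600 CPM (median 13300). The chemokines Ccl4 and Xcl1 were at medians of 1030 and 610 CPM in those libraries. Counts are of 3′ ends, so levels are compared between samples and not between genes.

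Granzyme A varied between libraries, but its level depended on the rule. A library with UMIs of only Nkg7 and Gzma admits no member without Gzma, as in fresh female libraries 2 and 3, while 3 of the C57BL/6J fresh libraries had UMIs of all 5 genes. Where Gzma had UMIs, libraries with at least 5 members held 2070 to 14400 CPM (median 8570), with a UMI in 30.8 to 100% of members. It was 3280, 2210 and 2070 CPM in the 3 libraries with all 5 genes, and 9840, 13700 and 13200 CPM in the fresh female ones, and these levels are not compared. Nkg7 ran from 1670 to 9330 CPM (median 3720), with its highest value in a Balb/c male library. The male files list no mitochondrial genes, so CPM there are scaled to a smaller total. Among libraries with at least 5 members, Gzmb, a granzyme of activated killer cells, had UMIs in 2, both of warm suspensions. It was at 411 CPM in the warm fresh library of mouse 2 and 1340 CPM in the warm cryopreserved one of mouse 3. Ifng, interferon-γ, had UMIs in the same 2, at 379 and 1340 CPM. The part of dissociation and storage in this was not tested. The transcription factor Tbx21 had UMIs in 1 library, at 118 CPM.

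Genes linked to circulating or to tissue-resident NK cells and type 1 innate lymphoid cells were both found at low levels. Of 10 genes of the circulating list all were detected in members, and the list made up 0.101 to 0.569% of member UMIs (median 0.204%). The 12 genes of the tissue-resident list, all detected, made up 0.0187 to 0.428% (median 0.148%). In libraries with UMIs of the gene and at least 5 members, S1pr1 was at 0 in 14 of 14 and Cx3cr1 in 11 of 14, but Klf2 and Ltb in none. Both ranges pool warm and cold libraries. In the sums per suspension below, Klf2 was at 1520 CPM warm and 545 cold, and Rgs2 at 608 and 16.5. They were the 1 gene tested of each list, and edgeR called neither. The part of dissociation in the ranges was not tested. Of defining genes, Itgam (CD11b) was in 7.62% of the members of libraries where it had UMIs, Itga1 (CD49a) in 2.82%, the interleukin-7 receptor Il7r in 1.82%, and Cxcr6 in 17.2%. The UMIs of such receptors were too few per member to divide the members by them.

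In libraries with members their share ran from 0.0631 to 1.04% of barcodes (median 0.318%), from 3 to 19 barcodes a library. The cold fresh C57BL/6J libraries of mice 1, 2 and 3 held 6, 13 and 15 members, 0.255%, 0.318% and 0.277%. Of the warm fresh libraries only that of mouse 2 held members, 19 (0.318%), within the range of the cold ones. After methanol fixation the cold libraries held 0, 4 and 9 members (0, 0.0856 and 0.178%) and the warm ones 3, 12 and 0 (0.207, 0.362 and 0%). After cryopreservation the cold C57BL/6J libraries held none, and the warm ones 0, 0 and 7 (0.57%). Balb/c males had 18, 18 and 0 members, or 0.73, 0.579 and 0%. Balb/c females had 12, 5 and 7 fresh (0.261, 0.0631 and 0.159%) and 9, 16 and 7 cryopreserved (0.583, 1.04 and 0.589%). Each 0 was a library with UMIs of fewer than 2 of the 5 genes.

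None of the 12 comparisons of shares passed, and those of 3 against 3 libraries cannot give an exact two-sided permutation p under 0.1. In the females, whose libraries had UMIs of 4, 2 and 2 rule genes fresh and 2, 3 and 2 cryopreserved, the cryopreserved libraries did not overlap the fresh ones (0.736% ± 0.26 against 0.161% ± 0.0987, SD, n = 3 each; exact permutation p = 0.1, adjusted p = 0.4). As a percent of NK, T, B and macrophage barcodes together, the same libraries held 4.57 and 3.27% (difference 1.3 points, exact p = 0.4). Those 4 classes made up 15.7 to 16.3% of the cryopreserved female barcodes and 4.12 to 5.76% of the fresh ones. Warm minus cold differed by -0.177 points fresh (exact p = 0.3, adjusted p = 0.707) and 0.102 points after methanol (exact p = 0.5, adjusted p = 0.707). Neither sign held, since the first was 0.0348 points among libraries that could hold members and the second -0.0178 points with Nkg7 and Klrd1 required. Methanol minus fresh was -0.056 points over both temperatures (exact p = 0.53, adjusted p = 0.707). As a percent of the 4 classes it had the other sign, 0.476 points (exact permutation p = 0.835). Of all barcodes, the signs differed by temperature, with -0.196 points in cold suspensions, where the groups did not overlap (0 to 0.178% against 0.255 to 0.318%, n = 3 each; exact permutation p = 0.1, adjusted p = 0.4), and 0.0836 points in warm ones (exact p = 0.7, adjusted p = 0.84). As a percent of the 4 classes the cold groups overlapped (0 to 3.45% against 3.16 to 3.45%, difference -1.62 points, exact permutation p = 0.4). Libraries that could hold no member enter all of these as 0. These comparisons share fresh libraries.

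Because Nkg7 and Klrd1 had UMIs in 26 and 25 libraries, the count was repeated with both required in place of the 5 genes, an alternative chosen after seeing the data. It gave 176 barcodes in 24 libraries, 123 of them members and 32 in libraries without members. The cold cryopreserved C57BL/6J libraries then held 0.223 to 0.491%, against 0.212 to 0.24% in the fresh ones. Over the 3 sets of suspensions, cryopreserved libraries exceeded fresh ones by 0.34 points (exact permutation p = 0.0005 within sets, 9 against 9 libraries), where the rule gave 0.125 points (exact p = 0.351, adjusted p = 0.707). The sign was the same in each set, 0.114 points in cold C57BL/6J (exact p = 0.2), 0.529 in warm C57BL/6J (exact p = 0.1) and 0.375 in females (exact p = 0.1). The permutation p of 0.0005 is not adjusted and counts the libraries as independent. Stored libraries are aliquots of the suspensions profiled fresh, and the cold and warm C57BL/6J sets share their tags. No paired value was taken with Nkg7 and Klrd1 required. As a percent of the 4 leukocyte classes the difference over the 3 sets was -0.333 points (exact p = 0.577) with Nkg7 and Klrd1 required. By the rule it was -0.956 points (exact permutation p = 0.263), with libraries that could hold no member entered as 0. Those 4 classes made up 7.39 to 10.1% of barcodes in cold fresh C57BL/6J libraries and 31.5 to 37.7% in the cryopreserved ones. Set against these classes, barcodes with Nkg7 and Klrd1 were at 2.19 to 2.87% fresh and 0.592 to 1.56% cryopreserved there, without overlap. In warm C57BL/6J they were at 0 to 3.23% and 1.6 to 3.46%, and in females at 1.53 to 5.53% and 2.89 to 3.97%. The part of the leukocyte share in the difference was not tested.

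**Figure D2:**
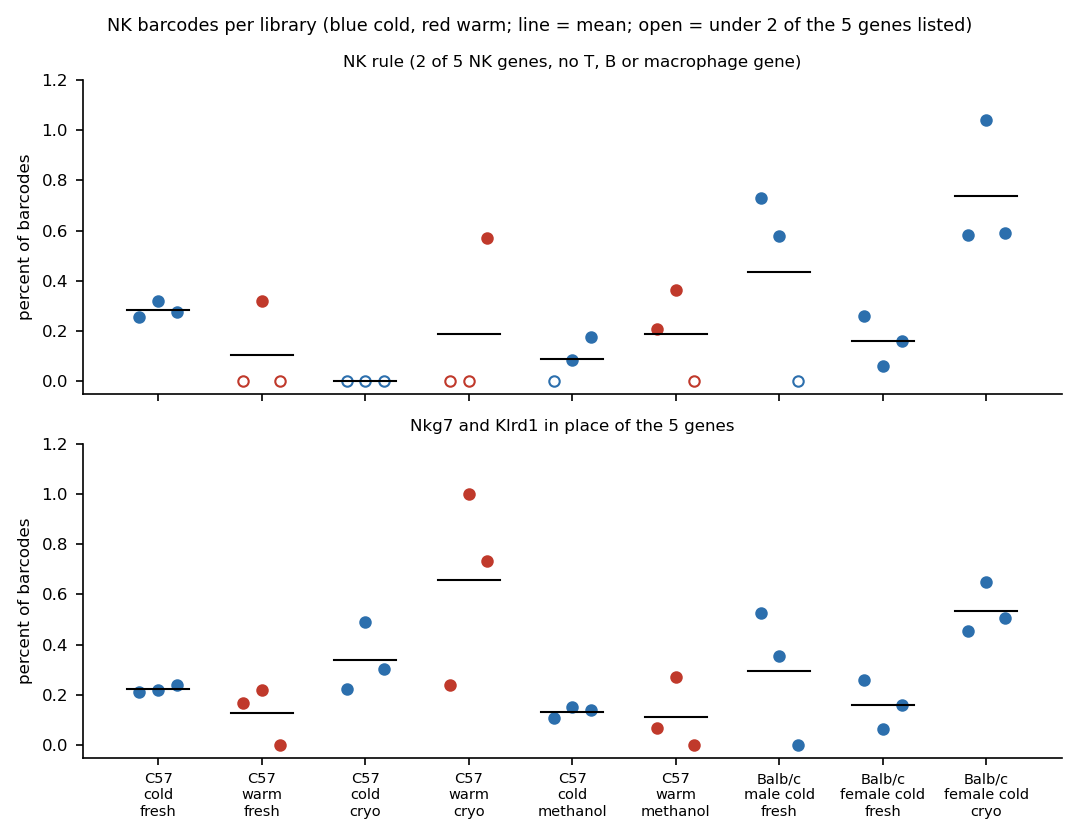
NK barcodes as a percent of all barcodes of a library (y axis) in the 9 groups (x axis, 1 point a library, line the mean), by the rule (top) and by Nkg7 with Klrd1 (bottom). Open points in the top panel mark libraries with UMIs of fewer than 2 of the 5 rule genes. By the rule the highest value is a cryopreserved female library at 1.04%, followed by a fresh Balb/c male library at 0.73%. By Nkg7 with Klrd1 a warm cryopreserved library reaches 1.0%.

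To see which genes separate NK cells from the lymphocytes nearest to them, UMIs of NK and of T barcodes were summed in the 9 fresh libraries with at least 5 of each and tested with edgeR, with the library as a block. The 593 genes tested leave out those that define either class. Of these, 124 (20.9%) were called at an adjusted p under 0.05, 50 higher in NK (8.43%) and 74 lower (12.5%). Members and T barcodes were both chosen on UMIs of the same libraries, so genes that accompany the chosen ones were bound to differ, and the values describe the class.

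The adaptors led. Tyrobp ran from 560 to 3926 normalised CPM over the 9 NK sums (median 2480) and from 0 to 284 over the T sums (median 59.6), with no overlap (log2 fold change 5.76 ± 0.36 SE, edgeR adjusted p = 1.11e-09). Fcer1g ran from 995 to 2774 (median 1724) against 0 to 345 (median 98.3), again with no overlap (4.79 ± 0.29, edgeR adjusted p = 1.11e-09). Of the adaptor list, 5 of 12 genes were tested, and Lat, the scaffold of T cell receptor signalling, was lower at 0 to 256 CPM against 515 to 980 (-1.88 ± 0.37, edgeR adjusted p = 0.00201). Hcst (DAP10) and the kinase Lck were not called, at -0.36 and 0.11.

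Both receptor genes tested were higher. Klrk1 ran from 272 to 2175 CPM (median 892) in NK against 42.4 to 493 (median 205) in T sums, and Klrd1 from 187 to 1536 (median 974) against 134 to 487 (median 256). The groups overlapped, but the NK sum exceeded the T sum of the same library in 9 of 9 for each gene (2.90 ± 0.28 and 2.67 ± 0.24, edgeR adjusted p = 4.7e-07 and 1.66e-07). Cd7, a surface protein of NK and T cells, was higher by 3.4 ± 0.31 (edgeR adjusted p = 9.65e-07). All 6 of the 10 NK markers outside the rule that were tested were higher (median 3.15, against 0.009 over all genes tested).

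All 3 chemokine genes tested were higher. Ccl5 ran from 6011 to 24442 CPM (median 13632) against 1837 to 10655 (median 3764), and the NK sum was the higher in 8 of 9 libraries (2.48 ± 0.34, edgeR adjusted p = 4.47e-05). Ccl4 was higher by 4.18 ± 0.72 and Xcl1 by 1.29 ± 0.40 (edgeR adjusted p = 0.000533 and 0.0296). Of 4 tested genes of the cytotoxic granule list, Serpinb9, which inhibits granzyme B, the lysosomal protease Ctsd and Ctsw were higher (4.04, 1.06 and 1.20), and the granule proteoglycan Srgn was not called (0.08).

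Among transcription factors 3 of 5 tested were higher, Irf8 by 4.60 ± 0.44, Zeb2, which is needed for NK maturation, by 3.06 ± 0.82, and the Tec kinase Txk, listed with them, by 1.77 ± 0.28. Id2 (0.21) and Ets1 (0.20) were not called. Spry2, an inhibitor of growth factor signalling, was higher by 4.30 ± 0.67 (edgeR adjusted p = 0.000185). The integrin chain Itgb2 of the circulating list was higher by 1.12, and of the tissue-resident list Cxcr6 and lymphotoxin Ltb were lower (-1.43 and -1.06).

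Genes lower in NK than in T included the interferon-induced Ifi27l2a (-4.82 ± 0.55, edgeR adjusted p = 4.82e-06), Ms4a6b (-2.81), Ly6a (Sca-1, -2.07), Slfn2, needed for T cell quiescence (-1.94), and Thy1 (-1.73). Of the ribosomal protein genes 51 of 82 tested were lower and none higher, with a median of -0.57. As a share of UMIs they made up 8.71 to 20.4% in members (median 12.9%) and 12.2 to 26.8% in T barcodes (median 20%), and were higher in members in 1 of 17 libraries. The chromatin protein Hmgb2, the 1 cell cycle gene tested, was lower (-1.15 ± 0.33). Without the library block 27 of 284 genes were called.

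**Figure D3:**
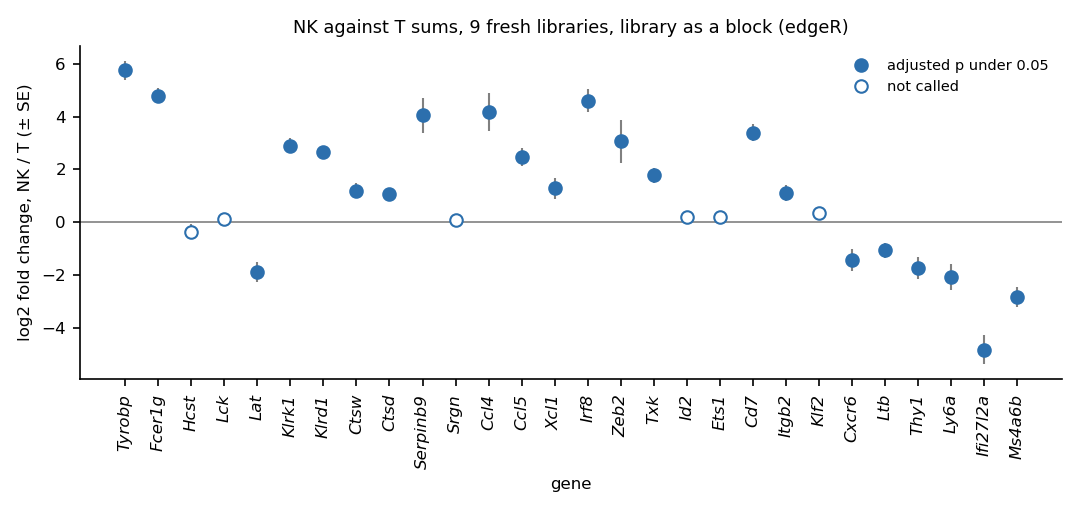
Log2 fold change of NK over T sums (y axis, ± SE) for genes of the lists and the leading lower genes (x axis) in 9 fresh libraries. Filled points passed an adjusted p under 0.05 in edgeR, with Tyrobp at 5.76 at the top and Ifi27l2a at -4.82 at the bottom.

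Whether warm dissociation changed NK transcripts could not be tested within a storage as planned, since cold fresh was the only C57BL/6J group with at least 2 libraries of 5 members or more. Members of 1 suspension were therefore summed over its storages, a comparison added after seeing the data, giving 3 cold suspensions (6, 17 and 24 members) and 2 warm ones (31 and 7). The third warm suspension, with 3 members, entered this test only as an alternative, but its UMIs are part of the pooled ratios and list sums below. Storages differ between the suspensions: the cold sums of mice 2 and 3 and the warm sum of mouse 2 hold fresh and methanol members, cold mouse 1 only fresh and warm mouse 3 only cryopreserved ones. The genes that admitted members differ too, since the library of warm mouse 3 had UMIs of only Nkg7 and Klre1 and those of the others of 2 to 5 rule genes.

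Of 342 genes tested, 7 were called (2.05%), all higher in the warm (2.05% higher, 0% lower). No call remained with the mouse tag as a block (0 of 504 genes, and 0 of 292 with the third warm suspension added; 31 and 18 at an unadjusted p under 0.05), a fit that leaves few residual degrees of freedom. The 7 were 4 genes of the stress list (Jun, Junb, Jund and Dusp1), the zinc finger factor Klf6, and the chemokines Ccl4 and Xcl1. Jun, Junb and Jund form the AP-1 transcription factor, and Dusp1 is a phosphatase that switches off MAP kinases. With DESeq2 6 genes were called, 5 of them the same, and the chemokines Ccl4 and Xcl1 were not called.

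Junb had 1, 6 and 0 UMIs in the cold sums of mice 1, 2 and 3, and 10, 212 and 33 in the warm ones. That is 74.4, 257 and 0 CPM against 4350, 4590 and 4410 CPM, with no overlap (pooled ratio 39.4, 95% counting interval 18.8 to 99.0, log2 fold change 5.07 ± 0.59, edgeR adjusted p = 0.00251). Jun had no UMI in any cold sum and 0, 44 and 6 in the warm ones, at least 18-fold higher when the cold sums together are set to 3 counts (edgeR adjusted p = 0.0219). Fos, the partner of the Jun proteins, was likewise at 0 in the cold and had 0, 56 and 11 UMIs in the warm sums. It was left out of the test because no barcode of the fresh cold library of mouse 1 had a UMI of it, and was called once genes without UMIs in a library were let in (9 calls). Dusp1 had 0, 1 and 0 UMIs against 2, 42 and 5. Jund had 744, 557 and 337 CPM against 0, 2920 and 4550 CPM, the 0 being the sum of 3 members (2.61 ± 0.34, edgeR adjusted p = 0.00317).

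Klf6 was at 74.4, 0 and 42.1 CPM cold and 435, 715 and 1470 CPM warm (4.5 ± 0.83, edgeR adjusted p = 0.0219). The chemokines had smaller fold changes. Ccl4, which recruits other leukocytes, was at 447, 1200 and 884 CPM cold and 2610, 5020 and 3340 CPM warm (2.13 ± 0.44, edgeR adjusted p = 0.0357). Xcl1, which attracts cross-presenting dendritic cells, was at 744, 685 and 800 CPM against 870, 2230 and 2270 CPM (1.45 ± 0.30, edgeR adjusted p = 0.0357). Ccl5 was not called (pooled ratio 1.85). The identity genes did not pass either, with pooled ratios of 0.952 for Klrd1, 0.853 for Tyrobp and 0.864 for Fcer1g.

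With the mouse tag as a block the adjusted p of the 7 genes ran from 0.334 (Junb and Jund, then 4.88 and 2.68) to 0.579 (Xcl1, then 1.29). Leaving out 1 cold suspension gave 11, 3 and 2 calls, with Junb and Jund in each and Xcl1 in none. Leaving out warm mouse 3 or 2 gave 5 and 7 calls, but then a single warm sum remained, assumed to vary like the cold ones. Without warm mouse 2 that sum was the cryopreserved one, and its calls included the tubule genes Fxyd2, Gpx3 and Kap and the haemoglobin gene Hbb-bs. Adding the warm suspension with 3 members gave 3 (Ccl4, Dusp1 and Junb). Haemoglobin genes made up 0.268, 3.98 and 2.88% of UMIs in the cold sums and 0.87, 0.18 and 0% in the warm ones, which overlap (exact permutation p = 0.2, adjusted p = 0.28), and mouse 1 had the higher value in the warm. UMIs of the 10 T markers made up 0.0354% ± 0.00947 cold and 0.105% ± 0.0623 warm without overlap (0.0298 to 0.0463% against 0.0535 to 0.174%, SD, n = 3 each; exact permutation p = 0.1, adjusted p = 0.175). The 0.174% was 4 UMIs in the 3 members of warm mouse 1, from a library where no barcode had a UMI of Cd3d or Cd3e, so Cd3g was the only Cd3 gene that could leave out T cells there. The part of either in the result was not tested.

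Over the 17 stress genes, a list that the study assembled on these same samples and so no independent evidence of direction, 9 were tested, 4 were called higher and none lower without the block (median 2.61, against -0.04 over all genes). The list made up 0.826 to 2.18% of member UMIs in the 4 warm libraries and 0.207 to 0.491% in the 5 cold C57BL/6J ones. All 17 genes had UMIs in the warm libraries and 13 to 16 of them in the cold C57BL/6J ones. The same held within a storage, since the warm fresh library held 1.91% against 0.491, 0.239 and 0.207% in the cold fresh ones, and the warm methanol libraries 0.826 and 1.24% against 0.373 and 0.218%. By suspension the stress genes made up 1.57% ± 0.686 warm and 0.324% ± 0.148 cold (SD, n = 3 each; exact permutation p = 0.1, the smallest possible, adjusted p = 0.175). Activation and NF-κB genes made up 0.342% ± 0.0836 against 0.0494% ± 0.0246, and chemokines and cytokines 3.02% ± 1.04 against 1.19% ± 0.354, both without overlap (exact permutation p = 0.1, adjusted p = 0.175). Most UMIs of the chemokine and cytokine list were of Ccl5, which was not called (19400 CPM warm and 10500 cold, pooled). Ccl4 was at 4700 and 909 CPM and Xcl1 at 2180 and 743.

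The share of stress genes was also taken in T barcodes and by storage. T barcodes of the same warm fresh library held 1.34% and those of the cold fresh ones 0.255 to 0.306%. In cold cryopreserved C57BL/6J libraries, which had no member, T barcodes held 1.04 to 1.15%, so the 2.18% of the warm cryopreserved library joins warm dissociation and cryopreservation. In Balb/c libraries, all cold, members held 0.267 to 0.497%. In females they made up 0.349% ± 0.0226 cryopreserved and 0.367% ± 0.118 fresh (SD, n = 3 each; exact permutation p = 0.9, adjusted p = 1.0), and the cold methanol C57BL/6J members lay within the range of the cold fresh ones.

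**Figure D4:**
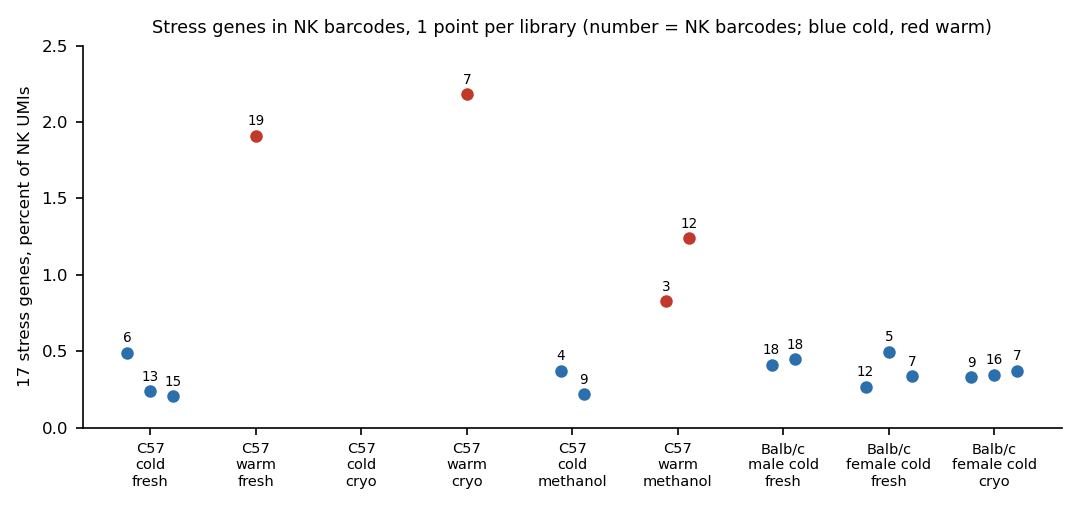
Summed UMIs of the 17 stress genes as a percent of member UMIs (y axis) in each library with members, by group (x axis), with the number of members at each point. The 4 warm libraries lie between 0.826 and 2.18%, above all 13 cold ones at 0.207 to 0.497%.

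Cryopreservation could be tested on NK sums in the Balb/c females, with 3 libraries each, but the members were admitted by different genes on each side. Fresh libraries 2 and 3 had UMIs of only Nkg7 and Gzma, so every member there carried Gzma, and cryopreserved libraries 1 and 3 of only Nkg7 and Ncr1, so every member there carried Ncr1. The part of this in the values was not tested. None of 231 genes was called (0%) by edgeR or DESeq2, and 14 had an unadjusted p under 0.05 by each. The 5 NK markers tested outside the rule had fold changes of median 0.38 (log2), and 4 of 5 were positive. All 11 mitochondrial genes tested were higher on average (median 0.92, against -0.05 over all genes), none called. Mitochondrial genes made up 14.6 to 30.8% of member UMIs fresh and 39.1 to 42.3% cryopreserved (24.1% ± 8.44 against 40.6% ± 1.62, SD, n = 3 each; exact permutation p = 0.1, adjusted p = 0.42). T barcodes showed 19.1 to 24.9% and 36.3 to 39.1%. Chemokines and cytokines made up 1.66% ± 0.552 fresh and 0.962% ± 0.423 cryopreserved (exact permutation p = 0.2, adjusted p = 0.42).

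Bulk RNA-seq of whole suspensions and of intact kidney had no part in choosing the members. In it, fewer NK cells, less RNA per NK cell and changes in other cells that carry these genes cannot be told apart. Most barcodes with Nkg7, Klrd1 or Klrk1 in the cell libraries were not members. In the cold fresh C57BL/6J library of mouse 3, Klrd1 had UMIs in 79 barcodes and Nkg7 in 87, against 15 members. The C57BL/6J bulk libraries held 5969212 to 8184923 counts and the female ones 21984996 to 31093949. NK genes were near the floor there, so the changes rest on few reads.

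Between warm and cold C57BL/6J suspensions 1224 of 14102 genes were called (8.68%), 764 higher in the warm (5.42%) and 460 lower (3.26%). Klrd1 had 24, 11 and 17 reads cold and 7, 8 and 5 warm (2.93, 1.84 and 2.7 against 0.908, 1.16 and 0.67 CPM), with no overlap (-1.49 ± 0.35, edgeR adjusted p = 0.019). The receptor Cd244 fell by 1.06 on the log2 scale (adjusted p = 0.0252). Of 24 receptor genes 9 were tested, 2 fell, none rose, and all 9 had negative fold changes (median -0.66). Klrk1 (-0.72) and Ncr1 (-0.88) did not overlap between the groups but were not called (edgeR adjusted p = 0.121 and 0.162), and Gzma was at 2.08, 1.51 and 0.635 CPM cold and 0.649, 2.03 and 1.07 warm (-0.27, edgeR adjusted p = 0.812). The call of Klrd1 ended by DESeq2 and in 4 of 6 cases where 1 library was left out (cold or warm replicate 1 or 3), with values of -1.31 to -1.49, and that of Cd244 ended by DESeq2 and in 6 of 6 cases. Of other leukocytes' markers, 7 of 8 B, 2 of 7 macrophage, 1 of 3 neutrophil and 0 of 9 T markers tested fell, and 1 T marker, Cd28, rose (1.17 ± 0.28, edgeR adjusted p = 0.0221). The T marker Cd3g, too low for the test, was at 1.59, 2.35 and 0.953 CPM cold and 0.649, 0.289 and 0.536 CPM warm.

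Other lists, like that of the receptors, hold genes that NK cells share with other leukocytes. Of the circulating list 5 of 8 tested fell, among them Ly6c2 (-1.47, edgeR adjusted p = 0.0178) and Itgb2 (-0.81), and Klf2 rose (1.57). Of 4 tested chemokine and cytokine genes 3 rose, Ccl4 by 4.09 ± 0.45 (3, 2 and 1 reads cold, 56, 35 and 28 warm, edgeR adjusted p = 0.000141), Ccl3 by 3.38 and Tnf by 2.41. Xcl1, called higher in the warm NK sums, was too low for the bulk test, at 0.855, 0.838 and 0.476 CPM cold and 0.779, 0.289 and 0.268 CPM warm. In single cells Ccl4 was found in 35.0% of members but also in 30.7% of macrophages, so its source in bulk was not tested.

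Intact kidney gives the level before dissociation. In female kidneys, 3313 of 16538 genes were called between cold suspension and intact tissue (20%), 1308 higher in the suspension (7.91%) and 2005 lower (12.1%). Nkg7 had 3, 9 and 10 reads intact and 20, 19 and 13 in suspension (0.0965, 0.301 and 0.344 against 0.91, 0.723 and 0.549 CPM, 1.54 ± 0.40, edgeR adjusted p = 0.0252). Gzma rose from 0.418, 0.568 and 0.619 to 2.27, 1.14 and 1.14 CPM (1.47 ± 0.34, edgeR adjusted p = 0.0133). Neither gene overlapped between the groups. Ncr1 did not overlap either and was not called (0.94 ± 0.34, edgeR adjusted p = 0.0821).

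Of the NK markers outside the rule, 7 of 9 tested rose, namely Gzmb (1.54), Klrd1 (1.41), Il2rb (1.14), Ctsw (1.09), Tyrobp (1.03), Klrk1 (1.01) and Fcer1g, and none fell (median 1.03, against 0.003 over all genes). Prf1 (0.89, edgeR adjusted p = 0.102) and Eomes (0.21) were not called. Of 10 receptor genes tested 7 rose, Cd226 by 1.39, Cd244 by 1.33 and Il18rap by 1.21 among them. Many but not all markers of other leukocytes were called higher too, with 5 of 10 T, 6 of 8 B and 6 of 7 macrophage markers higher, as were 3 of 3 neutrophil markers (median 2.19) and all 4 haemoglobin genes. All 22 mitochondrial genes tested were also higher (median 1.47), and their part in the result was not tested. Of 5 endothelial markers 4 were lower. Leaving out intact replicate 1 ended the calls of Nkg7 (then 1.16), Gzma (1.33), Klrd1 (1.08), Klrk1 (0.91), Gzmb (1.22) and Il2rb (0.99). Leaving out other single libraries also ended those of Nkg7, Klrd1, Klrk1 and Gzmb in at least 3 further cases each.

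**Figure D5:**
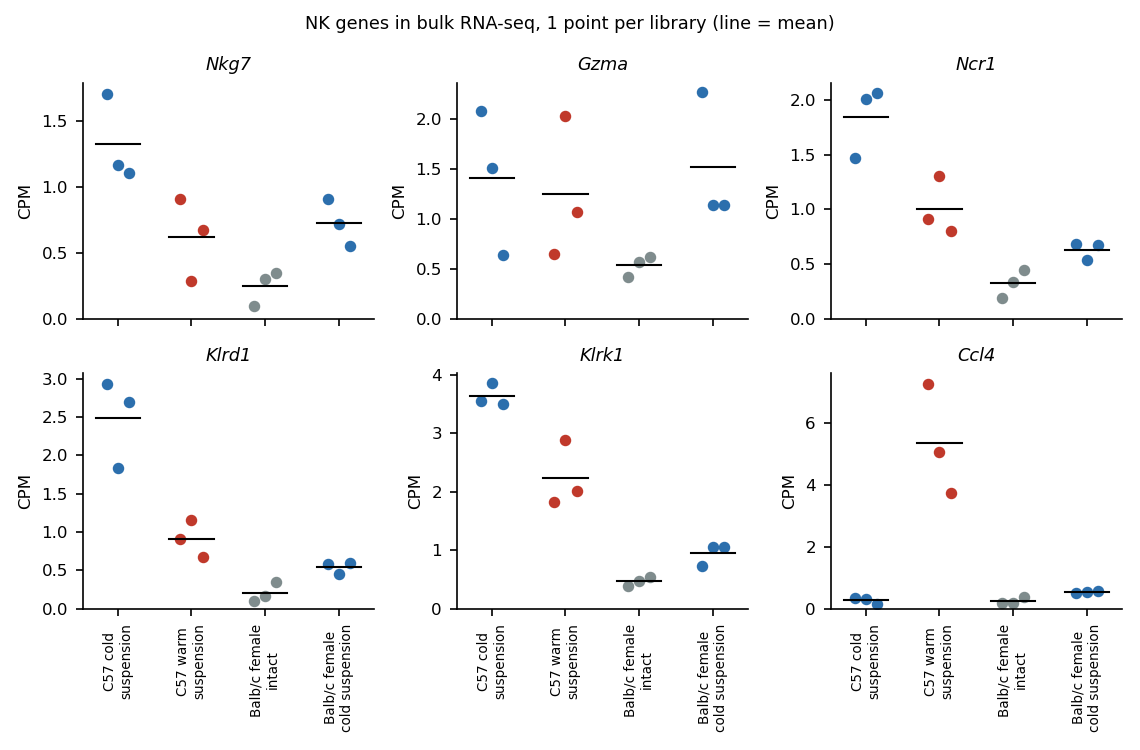
CPM (y axis) of 6 NK genes in the bulk libraries of 4 groups (x axis, 1 point a library, line the mean). Klrd1, Klrk1 and Ncr1 lie lower in the warm than in the cold C57BL/6J suspensions and Ccl4 higher. In the female suspensions these 6 genes, picked for the figure, lie above the intact kidneys. How many of all genes separate in the same way was not counted. Of the 16538 genes tested there, 7.91% were called higher in the suspension. Klrk1 and Ncr1 were not called between warm and cold, and Ncr1 and Ccl4 were not called between suspension and intact kidney.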

How the data were processed

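Droplet libraries of kidney cells and nuclei and bulk libraries were read from the deposited count tables. For cells the authors ran Cell Ranger 2.1.1 on mm10 and EmptyDrops, and kept genes in at least 10 cells and barcodes with 200 to 3000 genes and under 50% mitochondrial UMIs. The files showed a gene filter library by library, with exceptions, so a rare gene can be at 0 in a whole library. Male Balb/c cell files list no mitochondrial genes. For bulk the authors used Trim Galore, STAR 2.6.1a on GRCm38 and featureCounts. No doublet caller was run here.

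Members were found on the raw counts, and UMIs of members were summed per library. The members and gene lists were chosen with earlier results of these data known, and several lists follow an earlier analysis of the series. Sums with at least 5 members, and bulk counts, were fitted with edgeR 4.0.16 (R 4.3.3, TMM, filterByExpr, quasi-likelihood test, Benjamini-Hochberg adjustment over all genes tested, threshold 0.05), with DESeq2 1.42.0 as an alternative. Standard errors are of the log2 fold change. Shares and list sums were compared by two-sided exact permutation of libraries, within sets of suspensions where several were joined. Fits of NK sums between conditions took genes with UMIs in every library summed, and that of NK against T genes listed in every library. The edgeR fits were tested on simulated counts and the permutation of shares on a small fixed example. Replicates are separate mice or kidneys where the labels say so, and p-values otherwise measure the spread between libraries.

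Named genes were the 10 of the rule, genes of the lists, up to 10 called genes in each direction with the largest fold change, and the 20 most abundant outside the ribosomal and mitochondrial lists. Intervals (95%) and floors (3 counts) cover counting error only. Tags in the barcodes of the C57BL/6J files, read as mice, pair stored with fresh and warm with cold libraries, and the paired fits are given as alternatives. Over 6 libraries each, tags deviated from their group means by an average of -0.0659, 0.0379 and 0.028 points. Alternatives covered normalisation, tool, low-count filter, the number of rule genes, thinning to 500 UMIs and leaving out libraries. Some genes are not reported here by name.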

Additional observations from a re-analysis of the deposited data

Results flagged for a closer look

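By the rule, cryopreserved minus fresh was 0.576 points in Balb/c females and -0.283 points in cold C57BL/6J suspensions, a difference of 0.859 points (exact permutation p = 0.005 over 400 permutations, the smallest they can give). The cold cryopreserved C57BL/6J libraries had UMIs of fewer than 2 of the 5 rule genes, so no barcode could be a member there, their 0 was fixed in advance, and the difference says nothing of the mice. With Nkg7 and Klrd1 required instead, both differences were positive, 0.375 and 0.114 points.

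Outside the cell libraries, 17 of 98303 nuclei (0.0173%) met the same rule, in 7 of 12 nucleus libraries. In 3 of the other 5 fewer than 2 of the 5 rule genes had UMIs, so no nucleus there could meet the rule. The most in a library were 6, in nuclei purified on a sucrose gradient.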

How the results depend on the processing

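Shares of NK barcodes kept their direction in most alternatives and passed no test in any but 1. Requiring Nkg7 and Klrd1 raised the cryopreserved minus fresh difference to 0.34 points and took it past the threshold, unadjusted and with aliquots counted as independent. The same choice gave -0.0178 points for warm minus cold after methanol, 0.114 for cryopreserved minus fresh in cold C57BL/6J, 0.527 in warm C57BL/6J as a percent of the 4 leukocyte classes, and -0.0143 for methanol minus fresh in warm C57BL/6J. With at least 3 rule genes, cryopreserved minus fresh was -0.043 points (-0.0893 in warm C57BL/6J), and males minus C57BL/6J -0.0516. That choice fixes at 0 every library with UMIs of only 2 rule genes. Among these are fresh female libraries 2 and 3, cryopreserved female libraries 1 and 3, and the warm cryopreserved library of mouse 3. As a percent of the 4 classes that choice gave -0.195 for female cryopreservation, -0.183 for methanol and -0.0411 for males minus C57BL/6J. With barcodes thinned to 500 UMIs, methanol minus fresh was 0.013 points, males minus C57BL/6J -0.187 and females minus males 0.09. As a percent of the 4 classes thinning gave -0.369 for female cryopreservation, -1.96 for males minus C57BL/6J and 2.23 for females minus males. In libraries with UMIs of at least 2 rule genes, warm minus cold fresh was 0.0348 points (1.44 of the 4 classes) and methanol minus fresh in warm C57BL/6J -0.0336. Causes of these changes were not tested.

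In the paired fit, with the mouse tag as a replicate block in the C57BL/6J libraries, cryopreserved minus fresh was -0.0997 points (exact sign-flip permutation p = 0.438), and methanol minus fresh -0.056 points (p = 0.438, exact). The females, for which no tag was read, are left out. All cold and most warm cryopreserved libraries, and some fresh and methanol ones, could hold no member and enter as 0. Storage and the missing rule genes therefore cannot be told apart in these values. With the same block the warm against cold suspension sums gave 0 calls, with or without the third warm suspension. No paired analysis was possible in bulk because its labels do not tie a warm to a cold library.

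Leaving out 1 library at a time gave -0.283 to -0.124 points for warm minus cold fresh, 0 to 0.285 cryopreserved and 0.0157 to 0.197 after methanol. It gave 0.0621 to 0.161 for cryopreserved minus fresh over the joined sets, and 0.426 to 0.652 for the females alone. For methanol minus fresh it gave -0.0992 to -0.00299, for males minus C57BL/6J 0.00608 to 0.371 and for females minus males -0.494 to -0.129. In warm C57BL/6J, cryopreserved minus fresh ran from -0.106 (without cryopreserved replicate 3) to 0.19 points, and from -1.67 to 0.684 of the 4 classes (without fresh replicate 2). Methanol minus fresh ran from -0.423 (without warm methanol replicate 2) to 1.51 of the 4 classes, and in warm C57BL/6J from -0.00267 (without the same library) to 0.19 points.

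Without a filter on low counts 540 genes differed between NK and T sums, 8 with female cryopreservation, 17 between warm and cold suspensions and 1912 in bulk between warm and cold. NK against T gave 27 calls without the library as a block, 39 with a log2 fold change of at least 1, 73 with at least 10 barcodes of each, and 89 to 126 when 1 library was left out. The suspension comparison gave 3 calls with the third warm suspension added, 18 with Nkg7 and Klrd1 in place of the rule, and 2 to 11 when 1 suspension was left out, of which the 5 and 7 calls without a warm one rest on a single warm sum. Bulk warm against cold gave 329 calls with a log2 fold change of at least 1 and 776 to 924 with 1 library left out, and suspension against intact 905 and 2385 to 3085. In bulk, the log2 fold change of Gzma between warm and cold ran from -0.766 to 0.164 (without cold replicate 1; 0.0684 without warm replicate 1), and that of Prf1 from -0.779 to 0.0074 (without cold replicate 1).

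Contrasts of NK sums between warm and cold or methanol and fresh within a storage were not run for want of members, nor were female fits with at least 3 rule genes or at least 10 members. No mouse tag was read from the female barcodes and no block was fitted there. Fresh and cryopreserved female aliquots therefore count as independent libraries. Female cryopreservation gave 0 calls in every case where 1 library was left out.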
